A study of Mus musculus with 8 samples.

Results

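The genes described are 5 that carry hormone, transmitter or enteroendocrine functions: the receptor genes Sstr1, Prlr and Grin3a, the granule protein gene Chga and the butyrylcholinesterase gene Bche. They were chosen by name from the authors' deposited table of m6A peaks that differed between Mettl14 knockout and control colonic epithelium, and account for 9 of its 195 peaks and 5 of its 168 genes. m6A (N6-methyladenosine) was mapped by enriching RNA with an antibody to the mark and sequencing it beside unenriched RNA, the input. The tested mice had the genotype Mettl14 f/f; CDX-cre (3 immunoprecipitates and 1 input) and their controls Mettl14 f/f (3 immunoprecipitates and 1 input). Both genotypes thus carry the floxed alleles, on C57BL/6, at postnatal week 6 and without treatment. Whether the sexes were balanced between the genotypes is not known here. The labels name the Cre line only as CDX-cre, and do not say whether the replicates were separate animals.

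METTL14 is the partner that positions the catalytic subunit METTL3 on RNA, and the complex writes m6A on mRNA while it is being made. The mark is known to gather in long exons and around stop codons. Reader proteins bind it and affect how long a transcript lasts and how it is translated. In the gut, enteroendocrine cells are rare epithelial cells that release peptide hormones and serotonin from granules. Somatostatin from such cells restrains hormone release and secretion through inhibitory G-protein-coupled receptors, while acetylcholine reaches the epithelium from enteric neurons and tuft cells and acts there mainly on muscarinic receptors.

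Positions, enrichments, log2 fold changes and false discovery rates (FDR) are all quoted from the authors' deposited table, and none was recomputed. That table has 1 value per peak for the comparison and none per sample, so no library's depth is known and no spread between replicates can be attached to a peak. The largest FDR among the listed peaks is 0.0501, and peaks that did not pass the authors' test are not analysed here. Which genotype is on top of the fold change is not named; from the design it is likely knockout over control, and a negative value then means less m6A signal in the knockout. Signs are given as deposited. Knockout of the target could not be checked in these values, because Mettl14 had 0 listed peaks.

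All 9 peaks of the 5 genes were negative, in a table where negative peaks made up 38.5% of the whole. The genes were chosen with these signs in view, so nothing is read from that count. Log2 fold changes in the authors' deposited table spanned -4.36 in Prlr to -0.49 in Chga, with a median of -1.77 over the 9 peaks, against 0.74 over all 195 listed peaks and -1.44 over the other 66 negative ones. At -1 or lower stood 8 of the 9 peaks, against 63 of the 195 listed peaks (32.3%) and 63 of the 75 negative ones. A stricter FDR of 0.01 left 5 of the 9. Negative peaks that passed it were 40 of all 195 (20.5%), or 40 of the 75 negative ones. Since all 9 peaks are negative, the 75 negative peaks are the like comparison for both counts. The peak of the 5 genes nearest to the table's threshold was the first Sstr1 peak, at an FDR of 0.0372; peaks just outside the threshold are not analysed here. All 9 peaks lay wholly within the RefSeq span of their own gene, and 0 of them crossed another RefSeq gene or another listed peak.

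**Figure D1:**
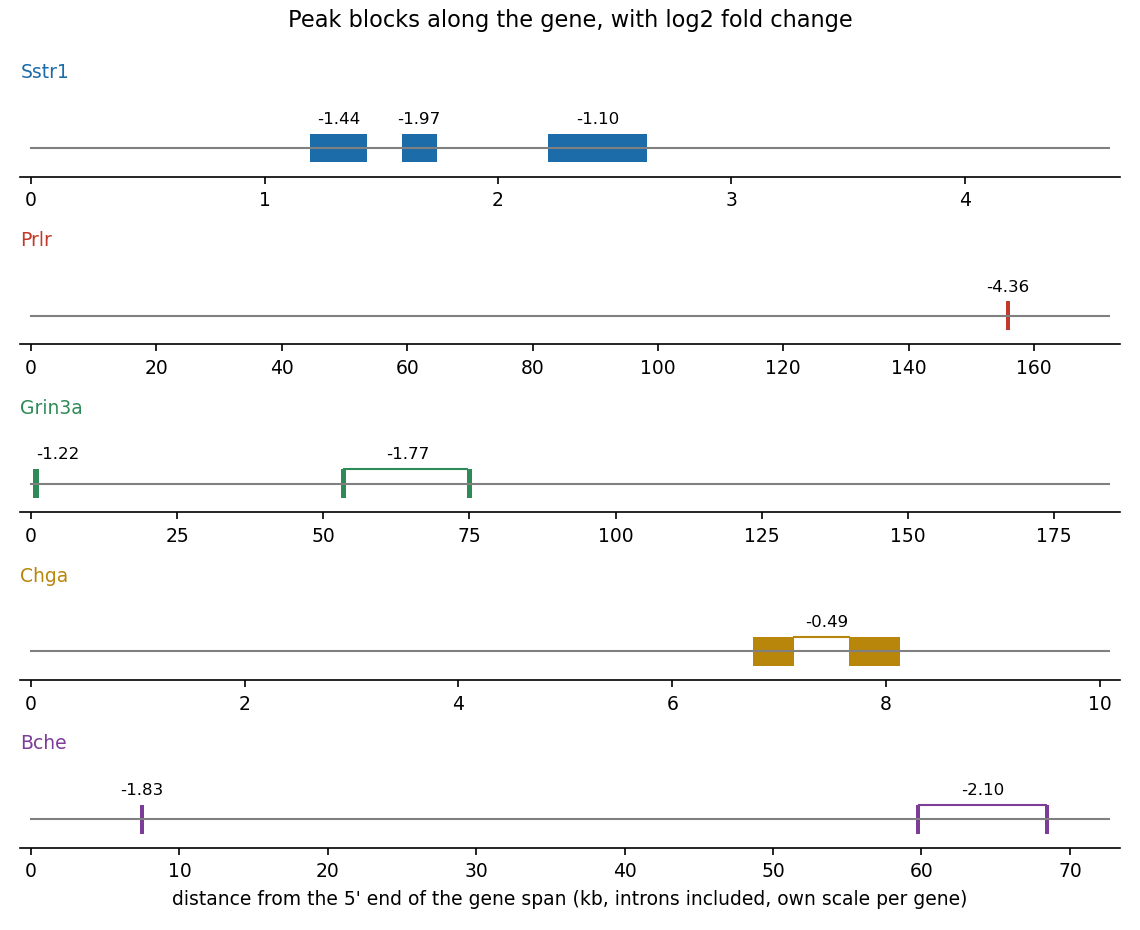
Blocks of the listed peaks along Sstr1, Prlr, Grin3a, Chga and Bche, in kb from the 5' end of the gene span, with a separate scale for each gene and the log2 fold change above each peak. Filled blocks are exon pieces of a peak as deposited, thin coloured lines join pieces of the same peak, and blocks too narrow to see are drawn at a minimum width. The 3 Sstr1 peaks lie close together, whereas those of Grin3a and Bche lie over 50 kb apart.

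Sstr1 encodes somatostatin receptor 1, an inhibitory receptor, and had 3 listed peaks on the plus strand of chromosome 12 (mm10). The first, at 58212618 to 58212858, was 241 nt wide, enriched 2.47-fold over input and had a log2 fold change of -1.44 (FDR 0.0372). The second, at 58213008 to 58213157, was 150 nt wide, enriched 1.71-fold and at -1.97 (FDR 0.0182). The third, at 58213637 to 58214057, was 421 nt wide, enriched 5.5-fold and at -1.10 (FDR 0.00479). The difference was therefore greatest in the middle peak, the narrowest and least enriched of the set, and smallest in the last, the widest and most enriched.

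Each Sstr1 peak is a single block, and the set runs over 1440 nt, of which the peaks cover 812 nt (56.4%). Gaps of 149 nt and 479 nt separate them. Their midpoints fell at 28.5%, 36.0% and 52.5% of the 4617 nt gene span, counted from its 5' end, and the last peak ended 1980 nt before the 3' end. None of the peaks therefore reached the end of the transcript span. The strength of the call differed widely among these neighbours: the authors' log10 p-value for enrichment was -53.5 for the third peak, -9.9 for the first and -3.87 for the second. Only the third had an enrichment above the table's median of 4.43-fold, and only the third passed an FDR of 0.01.

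Prlr encodes the prolactin receptor, a cytokine receptor that signals through JAK2 and STAT5. Its single peak had the most negative log2 fold change of all 195, -4.36, a 20.5-fold difference in size (FDR 0.0282; chromosome 15, 10333029 to 10333179, plus strand). The next in the order, a peak of the fructose transporter gene Slc2a5, stood at -3.51; without a spread for either, whether these neighbours differ was not tested. The size of the Prlr difference rests on a narrow and weakly enriched peak. It was 151 nt wide, ranked 6 among the 195 from the narrowest, and was enriched 2.77-fold. Ranked by enrichment p-value from the strongest, it was number 193 of 195, and by FDR of the difference number 155. Its position was late in a gene of 171953 nt, with the midpoint at 90.6% of the span and its end 16011 nt before the 3' end. RefSeq gives 3 transcript starts for Prlr, and the peak lay 39378 nt past the most downstream of them.

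Grin3a encodes the GluN3A subunit of NMDA-type glutamate receptors, which binds glycine. It held the 2 peaks of highest fold enrichment among the 5 genes, both on the minus strand of chromosome 4. Nearest to the 5' end was a single block of 1137 nt at 49844633 to 49845769, enriched 18.0-fold, with a log2 fold change of -1.22 (FDR 0.00537). It began 254 nt from the 5' end of the 184413 nt gene span. No other peak in the authors' deposited table had a midpoint so close to the start of its gene in percent of the span, and no other negative peak had a smaller enrichment p-value (log10 p-value -75.9).

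The second Grin3a peak extended over 22217 nt of the gene, 49770500 to 49792716, but consisted of a 289 nt block followed by a 967 nt block with 20961 nt between them. It was enriched 10.1-fold and its log2 fold change was -1.77 (FDR 3.72e-06), the smallest FDR among the 9 peaks and number 24 in the table. Its midpoint was at 34.9% of the gene span. Downstream of it, 108889 nt of the span held no listed peak, so both Grin3a peaks were in the 5' part of the gene. The gaps between blocks are taken as introns, which the gene table used here does not give.

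Chga encodes chromogranin A, the acidic protein that helps package hormones in secretory granules and a general marker of enteroendocrine cells. Its single peak, at chromosome 12, 102561693 to 102563073 on the plus strand, had blocks of 391 nt and 476 nt with 514 nt between them. It was enriched 1.95-fold and had the smallest difference of the 5 genes, a log2 fold change of -0.49 or 1.4-fold in size, with an FDR of 0.00129. A small difference thus had the second smallest FDR of the 9 peaks. The log10 p-value for enrichment was -21.6, although the peak ranked 176 of 195 by fold enrichment. The midpoint was at 73.8% of the gene span and the peak ended 1954 nt before its 3' end. In bulk epithelium, fewer enteroendocrine cells, less Chga RNA per cell and less methylation of that RNA cannot be told apart here. The way the single input of each genotype entered the value is not given. For the same reasons, RNA amount and methylation cannot be told apart for Sstr1, Prlr, Grin3a or Bche.

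Bche encodes butyrylcholinesterase, an enzyme that splits acetylcholine and other choline esters. It had a pair of weak peaks on the minus strand of chromosome 3, far apart in a gene of 72632 nt but alike in value. The 5' peak was a single block of 181 nt at 73700880 to 73701060, enriched 2.31-fold, at a log2 fold change of -1.83 (FDR 0.0186). The 3' peak ran over 73639948 to 73648723 in blocks of 87 nt and 94 nt, also 181 nt in all, was enriched 1.92-fold and stood at -2.10 (FDR 0.00174). Between the peaks were 52156 nt, with midpoints at 10.3% and 88.3% of the span. The Bche values were 0.27 apart on the log2 scale, against 0.55 for the 2 Grin3a peaks and 0.87 over the 3 Sstr1 peaks. Sstr1 has more peaks than the others, and without a spread for any peak the difference between these ranges was not tested.

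**Figure D2:**
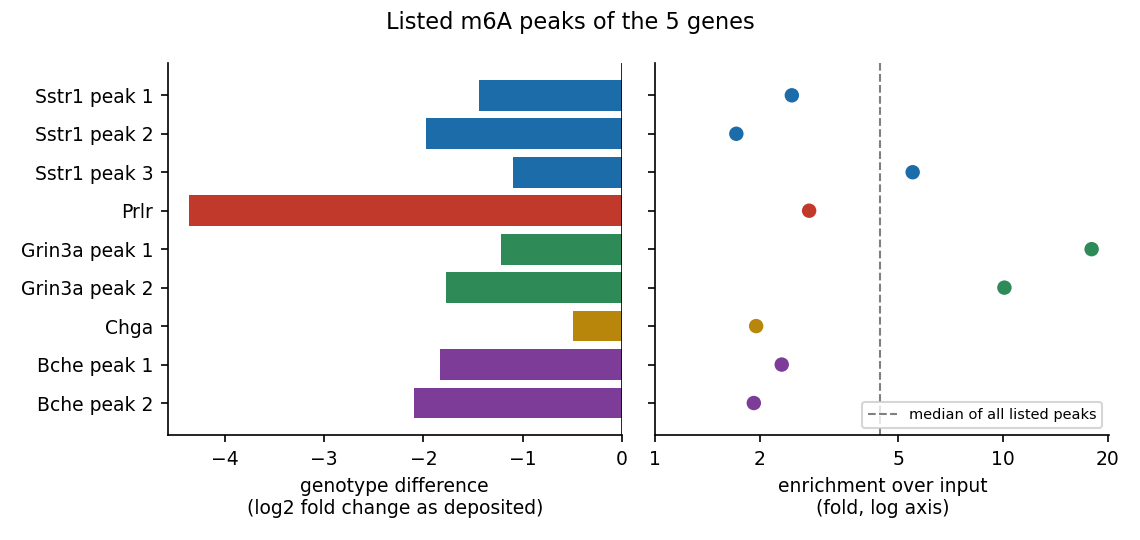
Log2 fold change as deposited (left, bars from 0) and fold enrichment over input (right, log axis, dashed line at the median of all 195 listed peaks) for each of the 9 peaks, numbered from the 5' end of the gene. Prlr has the longest bar at -4.36 and Chga the shortest at -0.49, while both Grin3a peaks and the third Sstr1 peak lie right of the median of 4.43-fold.

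Most of the 9 peaks were weakly enriched and narrow. Enrichment over input ranged from 1.71-fold in Sstr1 to 18.0-fold in Grin3a, with a median of 2.47-fold, against 4.08-fold in the other negative peaks and 4.88-fold in the positive ones. Of the 9 peaks, 6 were enriched under 3-fold (66.7%), a level that 31.3% of all listed peaks were under. Spliced width, the summed exon blocks, ranged from 150 to 1256 nt with a median of 241 nt, against 479 nt in the other negative peaks. Grin3a and Chga lay at the wide end, and Sstr1, Prlr and Bche at the narrow one. These are descriptions of a list chosen with its values known, and no test was made on them. In the order of log2 fold changes, the other genes nearest to the first Grin3a peak were Pck1 and Ppara, both at -1.23. Nearest to the third Sstr1 peak were Arhgap24 and D630039A03Rik at -1.10, and nearest to the Chga peak Aoc1 at -0.47 and Flrt3 at -0.56. The 5' Bche peak stood next to Tmem44 at -1.85 and Arhgap20 at -1.86. These neighbours are near in 1 value of the authors' deposited table, and no spread is known by which to separate them.

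**Figure D3:**
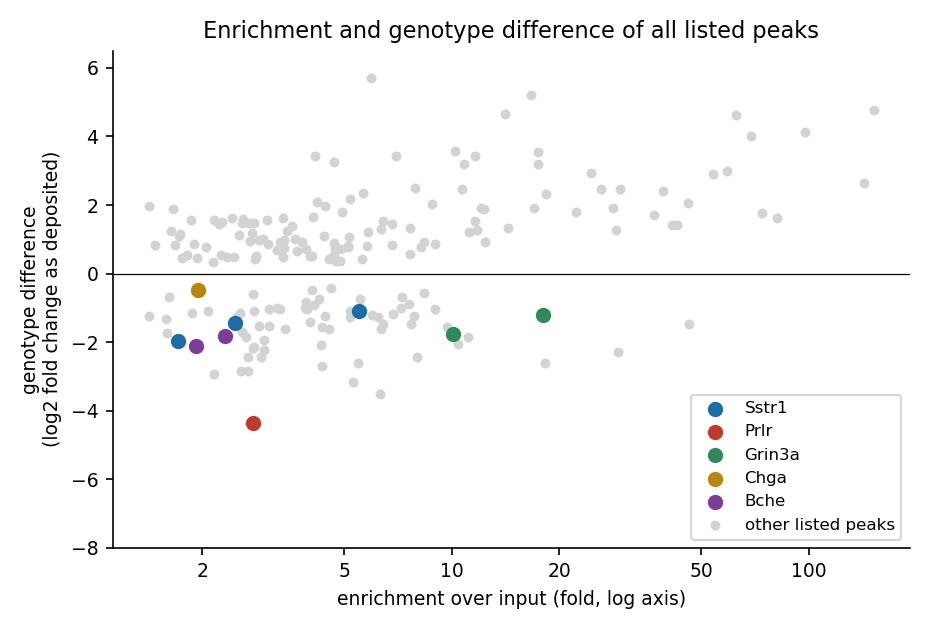
Fold enrichment over input (log axis) and log2 fold change as deposited for all 195 listed peaks, with the 5 genes in colour. Most coloured points lie at low enrichment below 0, Prlr is the lowest point of the plot at -4.36, and the Grin3a peaks at 10.1-fold and 18.0-fold lie to the right of the others.

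In each of the 3 genes with several peaks, the less enriched a peak was, the larger was its difference. For Sstr1 the enrichments of 5.5, 2.47 and 1.71-fold went with log2 fold changes of -1.10, -1.44 and -1.97. For Grin3a, 18.0 and 10.1-fold went with -1.22 and -1.77, and for Bche 2.31 and 1.92-fold with -1.83 and -2.10. The same order was seen in 6 of the 10 other genes with several negative peaks and the opposite order in 3. Among the 9 genes with several positive peaks, 4 had this order and 4 the opposite one. In a gene with 2 peaks, such as Grin3a or Bche, only this order or its opposite is possible. Peaks enter the authors' deposited table only past its threshold, and the part of that selection in the order was not tested. How the 2 genotypes enter the enrichment value is not given. Enrichment and difference of a peak may therefore not be independent, which was not tested either.

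**Figure D4:**
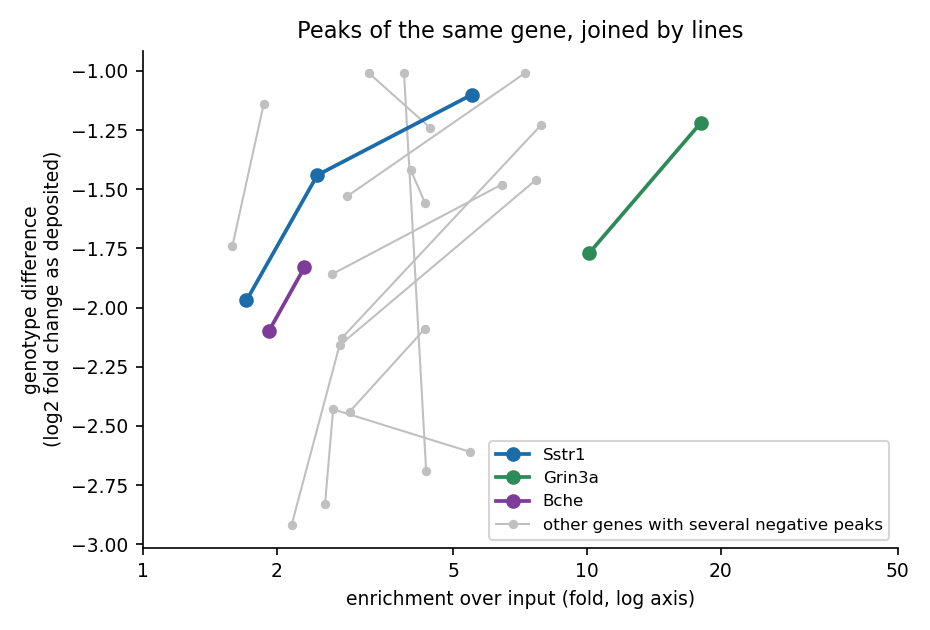
Fold enrichment over input (log axis) and log2 fold change as deposited for the 13 genes with several negative peaks, with the peaks of a gene joined by a line. The lines of Sstr1, Grin3a and Bche all climb to the right, from a larger difference at low enrichment to a smaller one at high enrichment, as do 6 of the 10 grey ones.

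The 9 peaks were spread along their genes, with Grin3a, Sstr1 and Bche holding early ones; the difference from other peaks was described, not tested. Midpoints in the first 50% of the gene span were found for 5 of the 9 peaks (55.6%), namely both Grin3a peaks, the first and second Sstr1 peaks and the 5' Bche peak. Among the other negative peaks 7 of 66 (10.6%) lay there, and over all listed peaks 83 of 195 (42.6%). The median midpoint was 36.0% of the gene span for the 9 peaks, 94.1% for the other negative peaks and 46.7% for the positive peaks. Counting introns makes this measure depend on intron length, and 2 of the early peaks belong to Grin3a and 2 to Sstr1. Peaks of 1 block were 6 of 9 (66.7%), against 86.4% of the other negative peaks and 47.7% of all listed peaks. Blocks numbered 2 in the remaining Grin3a, Chga and Bche peaks, and none of the 9 had more.

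**Figure D5:**
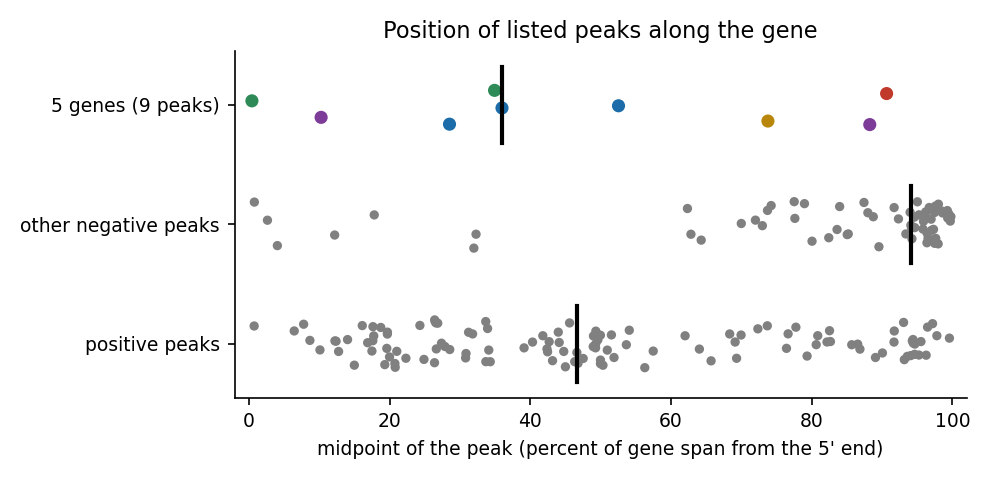
Midpoint of each listed peak as a percentage of its gene's span, counted from the 5' end, for the 9 peaks of the 5 genes (coloured by gene), the other 66 negative peaks and the 120 positive peaks, with the median of each row as a black bar. The coloured points spread from the start of Grin3a to 90.6% in Prlr, and the other negative peaks crowd near the 3' end around their median of 94.1%.

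Among other genes of the same pathways, a muscarinic receptor gene and a cytokine signalling inhibitor had a listed peak. Of 98 genes on 6 lists of hormone and transmitter signalling, 7 had a listed peak, the 5 genes above and 2 more. The lists hold the 5 genes and were chosen with earlier results known, so nothing is read from that count. The first was Chrm1, a muscarinic acetylcholine receptor gene, from the list of 12 acetylcholine genes that also holds Bche. Its 1 peak (chromosome 19, 8678843 to 8679592, plus strand, 1 block of 750 nt) was enriched 3.42-fold and had a log2 fold change of -1.63 (FDR 5.25e-05). It is negative like both Bche peaks, and its midpoint was at 77.6% of the gene span. From the same list, the acetylcholine synthesis gene Chat, the esterase gene Ache and the other muscarinic receptor genes Chrm2 to Chrm5 had no listed peak.

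The second was Socs3, a feedback inhibitor of cytokine receptor signalling, from the list of 12 prolactin and growth hormone signalling genes. Its sign in the authors' deposited table was opposite to that of Prlr, at 1.32 (FDR 0.00537, 14.4-fold enriched, 1 block at chromosome 11, 117966955 to 117968122). Socs3 answers to many cytokines, so this list does not tie it to the prolactin receptor. Jak2, Stat5a and Stat5b, the kinase and transcription factors downstream of that receptor, had no listed peak, and neither had the growth hormone receptor gene Ghr.

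On the remaining lists, Sstr1 was the 1 listed gene among 7 somatostatin ligand and receptor genes, with no listed peak for the ligand gene Sst or for Sstr2 to Sstr5. Grin3a was alone among 18 ionotropic glutamate receptor subunit genes, and the obligate NMDA receptor subunit gene Grin1 was not listed. Chga was the 1 listed gene of 30 enteroendocrine hormone, granule and transcription factor genes, which include the hormone genes Gcg, Pyy and Insl5 and the serotonin synthesis gene Tph1. Of 20 other gut hormone and transmitter receptor genes, 0 were listed. A gene without a listed peak may have had no peak to test or a peak that did not pass, and these cannot be told apart here.

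As an enteroendocrine group the 5 genes are mixed. Chga alone is a defining enteroendocrine gene, 1 of 10 such markers with a listed peak. Of 14 enteric neuron and glia markers 0 had a listed peak, as had 0 of 8 immune markers, 0 of 6 epithelial markers and 0 of 6 colonocyte markers. Only 168 genes had a listed peak in all, so lists this short can readily hold none of them. Nothing about cell types is read from these counts. The immune list does not hold several genes typical of macrophages and other phagocytes that were listed. Named after their values were seen, these include the complement genes C1qa, C1qb and C1qc at 1.92, 2.36 and 2.47, and Mpeg1 at 2.42 and 1.79, all positive and thus opposite in sign to the 9 peaks. The chemokine receptor gene Ccr1 at 2.99 and the NADPH oxidase gene Ncf4 at 4.65 and 3.58 were positive too. From the 8 stromal markers the collagen gene Col1a1 was listed, with a positive value of 1.61 (FDR 0.0347) in the authors' deposited table. Collagen genes outside that list had both signs, Col6a1 at 1.27 and Col8a1 at -2.16, -2.92 and -1.46. Since the table holds differences and no levels, it does not show in which cells Sstr1, Prlr, Grin3a or Bche RNA was present, and the part of other cell types in these values was not tested. The sex-dependent RNA gene Xist was listed at -2.61, -2.43 and -2.83, and its antisense gene Tsix at -2.85. The sex balance of the genotypes is unknown here, and the part of sex in the 9 peaks was not tested.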

How the data were processed

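The 8 libraries were grouped by genotype and RNA fraction from their titles. The submitters' processing notes list R 3.6, HOMER 4.10.0, HISAT2 2.1.0 and Trim Galore 0.6.5 with build mm10 and no roles; no peak caller is named there or in the file header. The authors deposited 1 table of peaks. Its score is the p-value of each peak's enrichment, deposited also as log10 (largest gap 0.02). The deposited enrichment is a ratio, immunoprecipitate over input, on a linear scale. The genotype difference was deposited by the authors as a log2 fold change with log10 p-value and FDR, turned back into linear values here. Depth per sample is unknown.

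The 5 genes, the gene lists and the rule for named genes (every peak of the 5 genes and every list gene with a listed peak, and the peaks nearest in log2 fold change to each gene's most enriched peak) were chosen with earlier results of these data known. Starts were made 1-based. Gene spans are RefSeq's for GRCm38.p6, the assembly of mm10, and all 5 genes matched by symbol. Position and width functions were tested on 200 simulated peaks, and 200 were recovered. No exon annotation or sequence under the peaks was used here. No test of significance was run. Computation used pandas 2.3.3, matplotlib 3.10.9 and numpy 2.4.6 under Python 3.11.15. Alternatives were a stricter FDR, a minimum difference, a minimum enrichment, values per gene, other points and widths of the peak and a wider overlap.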

Additional observations from a re-analysis of the deposited data

How the results depend on the processing

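Of the 9 listed peaks, 5 passed an FDR of 0.01 (both Grin3a peaks and 1 each of Sstr1, Chga and Bche) and 3 had at least the median enrichment of 4.43-fold (both Grin3a peaks and the third Sstr1 peak); fewer pass by construction, and Prlr was lost under both. Requiring a log2 fold change of at least 1 in size kept 8, without Chga. The median log2 fold change of -1.77 was -1.50 with 1 value per gene and -1.22 under either of the first 2 filters. The median position of 36.0% was 34.4% by the 5' end of the peak, 41.0% by its 3' end and 49.3% with 1 value per gene. Median width was 421 nt with introns in place of 241 nt. Median enrichment stayed at 2.47-fold with 1 value per gene. The number of peaks overlapping another listed peak was 0 at 1 base and at an overlap of 50% of the shorter peak. No direction could turn, since all 9 peaks are negative. No paired analysis was possible because per-sample values were not among the columns, and no replicate could be left out. Read counts are unknown, so no depth limit can be given.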
